A study of Homo sapiens with 4 samples.

Results

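Tetraspanins are small multi-pass membrane proteins that gather integrins, immunoglobulin-domain proteins and proteases into patches of the plasma membrane and of endosomes. CD151 is known for its tight link to the laminin-binding integrins, CD63 for late endosomes and extracellular vesicles, and several others for cell migration and for vesicle traffic. The account below covers 10 of these genes (CD9, CD63, CD81, CD82, CD151, TSPAN3, TSPAN4, TSPAN6, TSPAN9 and TSPAN14), taken by name as a list of tetraspanins that associate with integrins. All 10 were found by their Ensembl identifiers among the 60721 genes of the count table, and all 10 passed the filter on low counts, as did 16137 genes in all. Association of the proteins was not measured here, only the abundance of their polyadenylated RNA.

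The RNA came from HS578T cells (Hs578T), an established human line from a breast carcinoma. Cells received GFP together with either a non-targeting control siRNA (SCR, 2 libraries) or an siRNA against TLN1 (siTLN1, 2 libraries), at 1.6 µM of RNA, and were collected after 48 h. TLN1 encodes talin-1, the adaptor that binds integrin tails and links them to actin. Both groups are transient transfections of 1 cell line, compared at 1 time. The labels describe the libraries of a group as biological replicas but do not say whether these were separate cultures, so p values measure only the spread between these libraries, which may be technical. In bulk RNA, fewer cells that express a gene and less RNA per cell cannot be told apart.

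The libraries held 31854322 to 46353297 counts assigned to genes. Within each group they are called a and b, after a number in the column headings that recurs in both groups. TLN1 fell from 871 ± 3.95 CPM (counts scaled to library size by TMM; SD, n = 2) in SCR to 48.3 ± 5.02 CPM (SD, n = 2) in siTLN1. Mesenchymal markers (VIM, CDH2, FN1, ZEB1, TWIST1, SPARC) summed to between 33056 and 40388 CPM per library, of which FN1 alone made up 23553 to 32369 CPM. Of these 6, CDH2 fell by 0.89 on the log2 scale (adjusted p 2.45e-05) and SPARC fell by 0.48 (adjusted p 0.0161, and 0.0603 to 0.142 when any 1 of the 4 libraries was left out). Epithelial markers summed to 122 to 152 CPM, nearly all of it from the keratins KRT8 and KRT18. GRHL2 had no count in any library, CDH1 stayed below 1 CPM in each, and EPCAM had 0 to 6 counts. The labels call the cells epithelial. Of the 7 epithelial markers, KRT18 had 104 to 131 CPM and KRT8 15.1 to 20.7 CPM, whereas CDH1, EPCAM, KRT19, ESRP1 and GRHL2 were at or near 0. Blood and endothelial markers summed to 3.57 to 5.19 CPM, and CD3E had no counts.

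The family is recognised by a pair of cysteine codons followed by a glycine codon in the large extracellular loop. These codons (TGT or TGC, then TGT or TGC, then GGN, read in frame on the coding strand) were found in all 10 genes, against 2.75% of 19505 protein-coding genes of GENCODE 29 with 1 transcript each. In each of the 10 genes 1 copy began between codons 145 and 156. CD9, CD63 and CD81 held 1 further copy elsewhere. The windows below show it for the genes on which the results turn, as 27 coding bases, 5′ to 3′, with the motif in capitals.
TSPAN3: cagctgcatTGTTGTGGAattcacaac
CD82: caggtgaagTGCTGCGGCtgggtcagc
CD151: gagttccacTGCTGTGGCagcaacaac
CD63: gattttaagTGCTGTGGGgctgctaac
CD81: acgcttgacTGCTGTGGCtccagcaca
TSPAN6: acgttgcatTGTTGTGGTgtcaccgat
In all 10 genes the window was split by an intron, so an exon junction falls within it. The bases lie within chr15:77052906-77054180 (minus strand) for TSPAN3, chr11:44615371-44618185 (plus) for CD82, chr11:837352-837483 (plus) for CD151, chr12:55726238-55726702 (minus) for CD63, chr11:2395518-2395892 (plus) for CD81 and chrX:100633516-100633933 (minus) for TSPAN6, all in GRCh38. TSPAN3 and TSPAN6 write both cysteines with TGT, whereas the other 4 genes shown open with TGC.

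The genes are otherwise far apart in sequence. Coding sequences of pairs of the 10 genes were most alike for TSPAN4 and TSPAN9 (67.5% identical bases in a global alignment) and next for CD9 and CD81 (60.7%). No stretch of 50 bases in annotated coding transcripts of CD9, CD63, CD81, TSPAN4 or TSPAN9 recurred in the transcripts of a gene outside the 10. The share of such stretches was 3.07% for CD82, 2.96% for CD151 and at most 1.33% for the other 3 genes. CD151 (chr11:832887-839831, plus strand) and TSPAN4 (chr11:842812-867116, plus strand) are close neighbours. CD81 (chr11:2376177-2397419) and CD82 (chr11:44564427-44620358) lie on the same chromosome.

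The first question was how much of each transcript the cells held. Per kilobase of annotated exon, CD63 was the highest of the 10, with 145 to 166 CPM per kb over the 4 libraries and a level in SCR above 99.0% of tested genes. CD151 followed at 100.4 to 125 CPM per kb and CD81 at 36.9 to 39.9 CPM per kb. CD82 came next at 16.6 to 21.2 CPM per kb. These 4 genes held the same ranks in all 4 libraries, and their ranges did not overlap.

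Below them, on the scale of annotated exon, most neighbours in the order could not be told apart. TSPAN3 ranged from 10.1 to 13.5 CPM per kb, TSPAN4 from 9.17 to 10.6, CD9 from 8.28 to 11.1 and TSPAN9 from 8.02 to 8.77, and each overlapped the next. TSPAN6 (2.43 to 2.87 CPM per kb) and TSPAN14 (2.50 to 2.78 CPM per kb) overlapped each other and lay below the rest, near the middle of all tested genes in SCR (percentiles 47.0 and 46.9). The length used matters here. The length of 1 principal transcript per gene was also used in place of all annotated exon. TSPAN4 then moved from place 6 to 4, CD82 from 4 to 5, CD9 from 7 to 6 and TSPAN3 from 5 to 7. CD63, CD151 and CD81 kept the top 3 places and TSPAN6 and TSPAN14 the last. For TSPAN14 this check changed little, because its transcript (16183 bases, 15147 of them 3′ UTR) is nearly as long as its exons (17889 bases). Its mean went from 2.61 to 2.88 CPM per kb. By this length TSPAN4 (36.6 to 42.2), CD9 (22.0 to 29.5) and TSPAN3 (13.2 to 17.5) did not overlap. CD82 (29.2 to 37.4) overlapped TSPAN4 and CD9. On that scale the means over 4 libraries were 332 for CD63, 260 for CD151 and 189 for CD81, against 155, 111 and 38.8 CPM per kb of annotated exon.

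**Figure D1:**
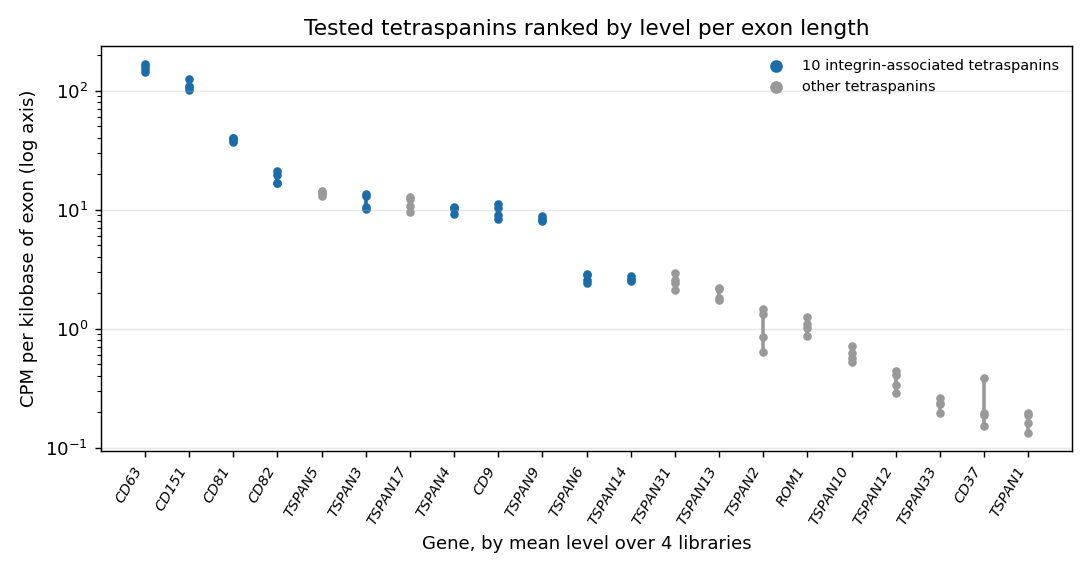
Level of the 21 tetraspanins tested, as CPM per kilobase of annotated exon on a log axis, with 1 point per library and a line over the range of the 4 libraries. Blue marks the 10 integrin-associated genes and grey the others; CD63 lies highest, at 145 to 166 CPM per kb.

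Together the 10 genes made up most of the tetraspanin RNA, with the largest parts from CD63, CD151 and CD81 (means of 155, 111 and 38.8 CPM per kb). Their summed level was 345 to 398 CPM per kb per library, which was 91.3% to 92.0% of the sum over all 33 human tetraspanins (92.6% to 93.2% with the length of 1 transcript). Of the 23 other tetraspanins, 11 were tested. The other 12 had 0 to 6 counts per library, and TSPAN16 had none in any of the 4. The highest of the 23 were TSPAN5 and TSPAN17, which bind the protease ADAM10, and TSPAN31. Per kilobase of annotated exon, TSPAN5 had 13.0 to 14.4 CPM, TSPAN17 9.54 to 12.8 and TSPAN31 2.12 to 2.91. Both group means of TSPAN5 lay above those of TSPAN3 and of every member ranked below TSPAN3 on that scale.

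The second question was whether these levels differed between siTLN1 and SCR. Of the 10 genes, 1 passed edgeR's quasi-likelihood test at an adjusted p under 0.05, TSPAN3, which was higher. The background is 6.07% of all genes tested (2.3% higher and 3.77% lower), so 1 of 10 is near what the whole table gives. CD82 and CD151 were lower in both siTLN1 libraries without passing the test, which did not pair libraries across the groups. Both passed in an alternative with the replicate numbers fitted as a block, described at the end, which called 3645 of 16137 genes. No label says that those numbers mark pairs. The median log2 fold change of the 10 was −0.035, with 4 above 0 and 6 below. Without SCR library a it was −0.083 (2 above 0) and without siTLN1 library b −0.086 (3 above 0), but it was 0.010 with SCR library b left out and 0.031 with siTLN1 library a left out (6 above 0 in each). Over all genes tested the median was 0.0033 and 50.6% were above 0. Libraries of the groups did not overlap for 4 of the 10 (TSPAN3 higher, CD82, CD151 and TSPAN9 lower), and this held for 48.4% of all genes tested, 23.9% as higher and 24.6% as lower.

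**Figure D2:**
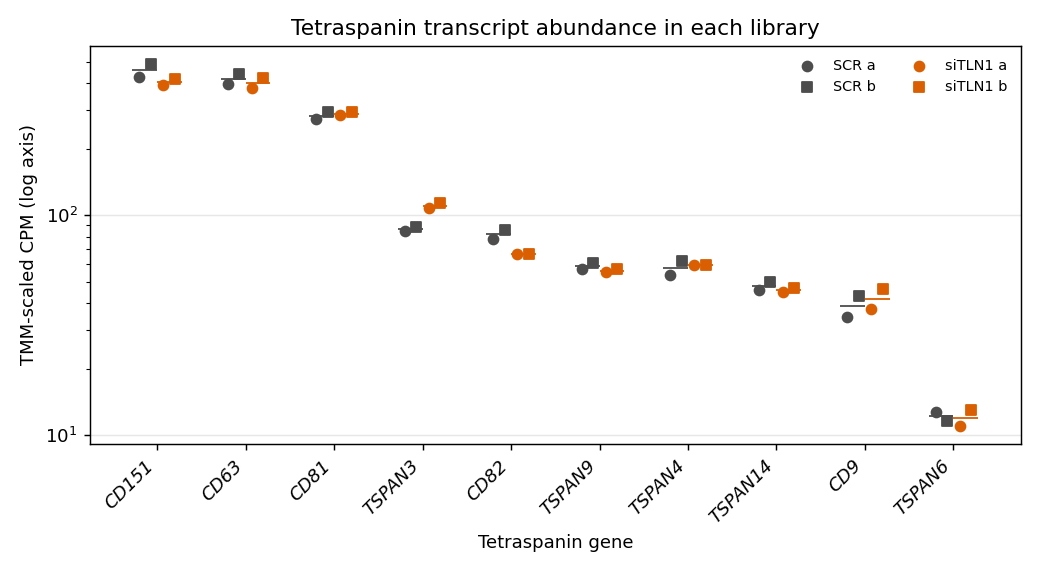
Abundance of the 10 tetraspanin transcripts in each library, as TMM-scaled CPM on a log axis, ordered by the SCR mean (circles, library a; squares, library b; short lines, group means). TSPAN3 lies higher in both siTLN1 libraries, and CD82 and CD151 lie lower.

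Integrin partners come first. CD151 (ENSG00000177697.19) had 427 and 488 CPM in SCR libraries a and b and 391 and 418 CPM in siTLN1 libraries a and b. Both siTLN1 libraries lay below both SCR libraries, but the 2 SCR libraries differed from each other by more than the nearest libraries of the groups did. The log2 fold change was −0.18 (SE 0.10), with a 95% interval of −0.39 to 0.033 and an adjusted p of 0.348. CD151 shares 6.60% of its exon bases with POLR2L on the opposite strand, and counting took no account of strand. POLR2L had 2337 to 3698 counts per library against 13581 to 19620 for CD151, and its part in the counts of CD151 was not tested.

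CD82 (ENSG00000085117.12), known as KAI1 and studied as a suppressor of metastasis, had 78.3 and 85.5 CPM in SCR against 67.0 and 66.9 CPM in siTLN1. The siTLN1 libraries were nearly equal and both were below SCR. The log2 fold change was −0.29 (SE 0.094), with a 95% interval of −0.49 to −0.092. Its unadjusted p in edgeR was 0.00683 and its adjusted p was 0.0801, so it did not pass. CD82-AS1, which shares 6.93% of its exon bases on the opposite strand, had no counts.

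CD9 and CD81 bind the immunoglobulin-domain proteins PTGFRN and IGSF8. CD9 (ENSG00000010278.14) had 34.5 and 43.0 CPM in SCR against 37.5 and 46.2 CPM in siTLN1. Library b exceeded library a in both groups by more than the groups differed, and the groups overlapped. Its log2 fold change was 0.11, with a 95% interval of −0.16 to 0.39 and an adjusted p of 0.707. CD81 (ENSG00000110651.11) had 273 and 295 CPM in SCR against 287 and 294 CPM in siTLN1, a log2 fold change of 0.030 with an interval of −0.17 to 0.23 (adjusted p 0.908). Both siTLN1 values of CD81 lay between its SCR values.

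CD63 and TSPAN6 are members studied for their part in endosomes. CD63 (ENSG00000135404.11; chr12:55725323-55729707, minus strand), a standard marker of late endosomes and exosomes, had 398 and 437 CPM in SCR against 381 and 420 CPM in siTLN1. The groups overlapped, and the log2 fold change was −0.060, with an interval of −0.27 to 0.15 and an adjusted p of 0.807. CD63-AS1, which shares 9.0% of the exon bases of CD63 on the opposite strand, had 70 to 125 counts per library against 12643 to 19737 for CD63. TSPAN6 (ENSG00000000003.15) was the least abundant by CPM, with 12.8 and 11.5 CPM in SCR against 11.02 and 13.0 CPM in siTLN1. The SCR values of TSPAN6 fell between its siTLN1 values, with a log2 fold change of −0.015, an interval of −0.28 to 0.25 and an adjusted p of 0.970.

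TSPAN3 (ENSG00000140391.15; chr15:77041404-77083984, minus strand), a widely expressed and less studied member, rose. It shares 3.14% of its exon bases with ENSG00000259652 on the opposite strand. TSPAN3 had 85.1 and 88.3 CPM in SCR against 108 and 113 CPM in siTLN1. The groups lay well apart, with means of 86.7 ± 2.28 CPM (SD, n = 2) and 111 ± 3.53 CPM (SD, n = 2). The log2 fold change was 0.35 (SE 0.092), with a 95% interval of 0.16 to 0.55, which is 1.28-fold (adjusted p 0.0293, edgeR). The call is a narrow one. Without a filter on low counts the adjusted p was 0.0520, and it was 0.0558 to 0.166 when any 1 of the 4 libraries was left out (0.111 and 0.0558 without SCR libraries a and b, 0.146 and 0.166 without siTLN1 libraries a and b), with log2 fold changes of 0.32 to 0.39. Over all alternatives the adjusted p ran from 4.59e-06 to 0.166.

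TSPAN4 and TSPAN9, the pair most alike in coding sequence, did not pass the test. TSPAN4 (ENSG00000214063.11), known from migrasomes, the vesicles that migrating cells leave on retraction fibres, had 53.5 and 61.8 CPM in SCR against 59.3 and 59.6 CPM in siTLN1. Both siTLN1 values fell between the SCR values, and the log2 fold change was 0.045 with an interval of −0.17 to 0.26 (adjusted p 0.868). TSPAN9 (ENSG00000011105.14; chr12:3077355-3286564, plus strand), studied in platelets, had 57.2 and 60.6 CPM in SCR against 55.4 and 56.8 CPM in siTLN1. Its groups did not overlap, but the gap was smaller than the spread within SCR, and the log2 fold change was −0.071 with an interval of −0.27 to 0.13 (adjusted p 0.755).

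TSPAN14 (ENSG00000108219.15; chr10:80454166-80533124, plus strand) belongs to the subfamily that escorts ADAM10, the protease that sheds Notch and cadherins, to the cell surface. It had 45.5 and 49.6 CPM in SCR against 44.7 and 46.9 CPM in siTLN1. The groups overlapped, with a log2 fold change of −0.056, an interval of −0.26 to 0.15 and an adjusted p of 0.823. ADAM10 itself had a log2 fold change of 0.062 (adjusted p 0.810). Of the other subfamily members, TSPAN5 had 101 and 103 CPM in SCR against 96.1 and 107 CPM in siTLN1, and TSPAN17 had 66.8 and 64.5 CPM against 49.8 and 55.5 CPM. TSPAN17 was lower in both siTLN1 libraries, with a log2 fold change of −0.32 and an adjusted p of 0.0652.

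For the 9 of the 10 genes that did not pass, the 95% intervals together spanned −0.49 to 0.39 on the log2 scale, or 0.712-fold to 1.31-fold. Each of the 10 genes had at least 401 counts in every library. Library b was above library a in both groups for 8 of the 10 genes, against 32.1% of all genes tested. For the 10 genes, libraries a and b follow replicates 1 and 2 of the authors' log2 CPM. For TSPAN6 those replicates read 3.68 and 3.54 in SCR and 3.47 and 3.71 in siTLN1. The replicate block thus allowed for the recurring number behind a and b. What that number marks is not given in the sources used here, and its own part in these values was not tested.

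**Figure D3:**
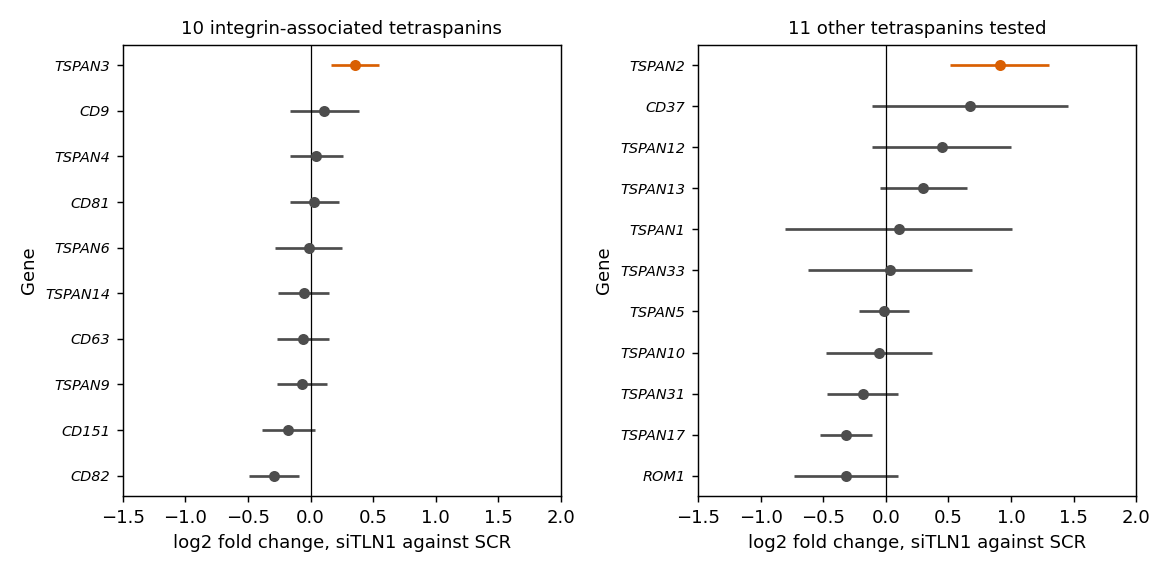
Log2 fold change of siTLN1 against SCR (points) with 95% intervals from edgeR's fit (lines), for the 10 genes on the left and the 11 other tested tetraspanins on the right; orange marks an adjusted p under 0.05. TSPAN3 (0.35) and TSPAN2 (0.91) are the genes so marked.

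Among the 23 other tetraspanins, 1 of the 11 tested passed, as a rise, against 6.07% of all genes tested in either direction. TSPAN2, known from oligodendrocytes, had 2.93 and 2.18 CPM in SCR against 5.03 and 4.55 CPM in siTLN1. Its groups did not overlap, at a level far below that of TSPAN3. The log2 fold change was 0.91 (SE 0.19) at an adjusted p of 0.00756, which became 0.0665 without siTLN1 library a, in a range of 4.16e-06 to 0.0665 over the alternatives. The median over the 11 was 0.031. TSPAN31 had 12.7 and 15.3 CPM in SCR against 11.1 and 13.5 CPM in siTLN1, which overlapped.

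The proteins that tetraspanins bind were read from fixed lists. Of 7 integrin subunits known as partners, 6 were tested and 0 passed edgeR's test, with 2 at an unadjusted p under 0.05 (ITGA4 and ITGA7) and 0 called by DESeq2. Over all genes, 3196 of 16137 had an unadjusted p under 0.05. The median log2 fold change of the 6 integrin subunits tested was −0.069. ITGB1, the common beta subunit, had 1552 and 1346 CPM in SCR against 1706 and 1503 CPM in siTLN1, and ITGA3, the main partner of CD151, had 296 and 306 CPM against 281 and 255 CPM. The groups overlapped for ITGB1 and not for ITGA3, and neither passed (adjusted p 0.514 and 0.349).

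Of 14 other membrane partners, 13 were tested and 1 passed, against 6.07% of all genes tested. It was PTGFRN (also called CD9P-1 or EWI-F), a direct partner of CD9 and CD81, which fell. PTGFRN had 645 and 585 CPM in SCR against 372 and 372 CPM in siTLN1. The siTLN1 libraries were nearly equal and far below both SCR libraries. The log2 fold change was −0.73 (SE 0.097) at an adjusted p of 0.000233, and it passed under each alternative run, with values from −0.79 to −0.65. The related IGSF8 and IGSF3 had log2 fold changes of 0.24 (adjusted p 0.343) and 0.00085 (adjusted p 0.999). The median over the 13 partners was 0.028.

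Of 15 genes of multivesicular bodies and vesicle release, among them SDCBP (syntenin, which binds CD63) and PDCD6IP (ALIX), 0 passed edgeR's test. Of these, 6 had an unadjusted p under 0.05 in edgeR, to be read against the 3196 of 16137 genes in all. FLOT1, FLOT2, CHMP2A and CHMP4B were below 0, VPS4B and RAB27B above 0. DESeq2 gave an adjusted p to 14 of the 15 and called 0. The median was −0.11, with 12 of 15 below 0. The largest value was that of RAB27B, at 0.51, with 53.1 and 36.5 CPM in SCR against 73.2 and 54.1 CPM in siTLN1. Library a was above library b in both groups. Its adjusted p was 0.221 in edgeR and 7.50e-10 in limma-trend with the replicate block, which called 3645 of 16137 genes.

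**Figure D4:**
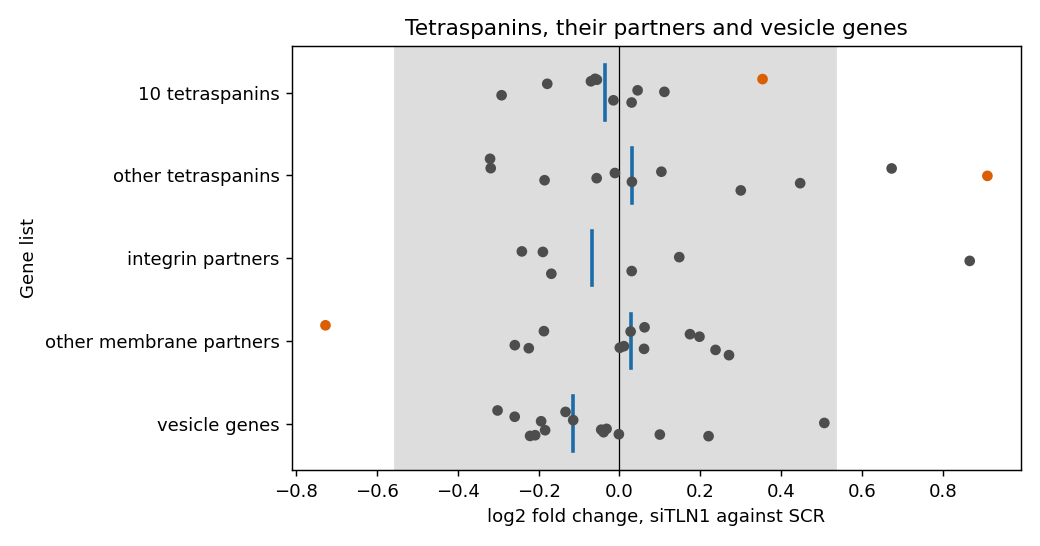
Log2 fold changes of siTLN1 against SCR for the 10 tetraspanins and the 4 other lists (points, 1 per tested gene, spread vertically for legibility); blue bars are list medians, orange marks an adjusted p under 0.05, and the grey band spans the 5th to 95th percentile of all genes tested (−0.56 to 0.54). The 10 tetraspanins all lie within the band, and PTGFRN lies below it at −0.73.

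A sequence feature of the transcripts was described last. In an earlier look at these data, genes holding the word GACAACA had lower fold changes, and the TLN1 coding sequence holds 1 copy. The word was taken from that look. Fold changes of its carriers given here come from the same libraries, so they are no independent test of it. Searched on the transcript strand of 1 principal transcript per gene in GENCODE 29, the word was in the coding sequence of CD82 and CD151, in the 3′ UTR of TSPAN6 and TSPAN14, and in neither region of the other 6. It is in the coding sequence of 14.95% and the 3′ UTR of 6.85% of protein-coding genes. The sites of CD151 and TSPAN6 are shown with 10 bases on each side, the word in capitals, beside those of TLN1 and of PTGFRN, the partner that fell.
CD151, coding: acgagaagaaGACAACAtgtggcaccg
TSPAN6, 3′ UTR: ctggagaactGACAACActacttactg
PTGFRN, 3′ UTR, first copy: ccggctgacaGACAACAcagacctgtg
PTGFRN, 3′ UTR, second copy: cttcaccgatGACAACAgaggaagaag
TLN1, coding: tagaggacctGACAACAaccctcaacg
In GRCh38 these windows are chr11:836083-836109 (plus), chrX:100629920-100629946 (minus), chr1:116987432-116987458 (plus), chr1:116990054-116990080 (plus) and chr9:35706027-35706053 (minus).

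All 13 annotated coding transcripts of CD151 hold the word, as do 3 of 10 for CD82, 2 of 3 for TSPAN6 and 2 of 8 for TSPAN14. The members with a copy in the coding sequence were those with the lowest log2 fold changes of the 10, CD82 (−0.29) and CD151 (−0.18). The members with a copy in the 3′ UTR, TSPAN6 (−0.015) and TSPAN14 (−0.056), lay in the middle of the 10. TSPAN3, which rose, holds no copy in any annotated coding transcript, and neither do CD9, CD63, CD81, TSPAN4 and TSPAN9. Of these, TSPAN9 (−0.071) and CD63 (−0.060) lay below both members with a copy in the 3′ UTR. Outside the 10, TSPAN17 (−0.32) holds no copy in any of its 7 coding transcripts, and TSPAN2 (0.91) none in its 3. CDH2 (−0.89) holds 2 copies in the coding sequence and 1 in the 3′ UTR. SPARC (−0.48) holds 2 in the coding sequence. Of protein-coding genes, 23.5% hold a copy in at least 1 coding transcript. Over all tested genes except TLN1, the median log2 fold change was −0.094 for 996 genes with a copy in the 3′ UTR. It was −0.024 for 1779 with a copy in the coding sequence only, and 0.020 for 9721 with none in either. The shares called lower by edgeR were 16.0%, 6.46% and 2.85%, in the same order. The part of the word in the values of these genes was not tested.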

How the data were processed

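Stranded mRNA libraries were made per the labels' protocols. The authors deposited raw counts per gene (featureCounts 2.0.0, paired mode, no strand option, GENCODE 33, per the file headers). The submitters' processing notes list STAR 2.7.9a and GRCh38. The same table gives exon lengths in bases, another unit, as deposited. A second deposited table holds log2 CPM values from the authors, used in 2 alternatives. Count columns name their group only, and the letters a and b stand for a number that recurs in a column of each group. Column names of the deposited log2 CPM table carry the replicate numbers.

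Counts were tested with edgeR 4.0.16 (R 4.3.3): filterByExpr (minimum count 10, minimum total 15), TMM scaling, glmQLFit (robust) and glmQLFTest, with Benjamini-Hochberg adjustment over 16137 genes and a threshold of 0.05. Tested on simulated data (15835 genes), it called 173 of the 200 genes that had been set to a 2-fold change and 8 that had not been changed. That recovery holds for a 2-fold change and says nothing about one the size of TSPAN3's (1.28-fold). CPM uses TMM-scaled library sizes. Alternatives were RLE scaling, library totals, no filter, DESeq2 1.42.0, limma-trend (limma 3.58.1) with and without a replicate block, and each library left out. The transcript length was added after seeing the data.

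All 10 members are named. From the other lists, called genes with a mean CPM of at least 1 (up to 6 per list) and the 3 most abundant other tetraspanins are named, and further genes were named after their values were seen. Members and lists were chosen with earlier results of these data known. A few items that these rules select are not reported here.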

Additional observations from a re-analysis of the deposited data

How the results depend on the processing

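The count of the 10 tetraspanins called was 1 with RLE scaling, library totals, DESeq2 and limma-trend without a block, 0 without a filter on low counts (TSPAN3 at an adjusted p of 0.0520, with more genes tested), and 0 to 0 with 1 library left out, when fewer samples are tested and the lone library is assumed to vary like the others. With all 4 libraries, neither sign nor call changed for 56 of 60 values of the 10 genes. Without a filter the log2 fold changes of TSPAN6 and TSPAN5 turned to 0.00063 and 0.0019. With 1 library left out, the sign was not stable for CD9 (−0.046 to 0.28), CD63 (−0.13 to 0.011), CD81 (−0.025 to 0.088), TSPAN4 (−0.054 to 0.15), TSPAN6 (−0.14 to 0.099), TSPAN14 (−0.12 to 0.0094) and TSPAN5 (−0.087 to 0.066). Calls then numbered 0 to 1 for the other tetraspanins, 0 to 1 for the integrin partners, 1 to 2 for the other partners and 0 to 2 for the vesicle genes. DESeq2 called 2 of 12 other partners (PTGFRN and MMP14, the latter at 0.27 with an adjusted p of 0.0485), and the cause was not tested. Over all genes DESeq2 called 806 of 11782. All genes called ran from 324 to 1100 with 1 library left out.

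The replicate numbers of the labels were fitted as a block with limma-trend. The replicate 2 minus replicate 1 differences of SCR and siTLN1 had a correlation of 0.19 over all genes and 0.54 over genes at 5 CPM or more, a range that includes the 10, but no label says that a number marks a shared preparation, and 2 pairs are too few to show it. With the replicate block 3 of the 10 genes were called (TSPAN3, CD82 at an adjusted p of 0.000265 and CD151 at 0.0279). Over all genes it called 3645 of 16137, and the counts for the lists are to be read against that share. The block fit called 2 of 11 other tetraspanins, 4 of 6 integrin partners, 5 of 13 other partners and 7 of 15 vesicle genes, RAB27B among them. The adjusted p of CD82 was 0.0646 to 0.383 and that of CD151 0.275 to 0.861 under the other alternatives.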
